A study of Mus musculus with 12 samples.

Results

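Toll-like receptors and the genes that carry their signal to NF-κB were followed in RNA-Seq of cultured mouse cardiac fibroblasts, as 39 named genes of the 35275 in the count table. The 39 are 10 Toll-like receptors, 4 co-receptors, 4 adaptors, 4 IRAK kinases and 5 genes of the TRAF, TAB and TAK1 step. The rest are 2 IκB kinases, 5 NF-κB subunits and 5 genes of IκB proteins and A20. These last 5 are called inhibitors below as a group name, which does not state what each, such as Nfkbiz, does. Each of the 39 was found by its symbol, and each had enough reads to pass the filter on low counts, which left 15150 genes for testing. Control cells and Smad7-KO cells were sequenced with and without TGF-β1, which gives 4 groups of 3 libraries. All 12 came from passage 2 fibroblasts of 12-week-old C57BL/6 mice with floxed Smad7, infected with adenovirus at an MOI of 100 for 48 hours. Cre adenovirus gave the Smad7-KO cells and a control adenovirus the control cells, which keep the floxed alleles. The control virus is a GFP virus in the labels and an empty virus in the methods of the study. A change with Smad7 loss therefore cannot be told apart here from a change with the virus used. Recombinant TGF-β1 was given at 10 ng/ml, for 2 hours by the sample characteristics and 4 hours by the protocol. Nothing states that the 3 libraries of a group came from separate cultures or animals, so p-values measure the spread between these libraries, which may be technical.

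Toll-like receptors recognise microbial molecules and molecules released by damaged cells. Tlr1, Tlr2, Tlr4, Tlr5 and Tlr6 work at the cell surface, and Tlr3, Tlr7, Tlr8, Tlr9 and Tlr13 sense nucleic acids in endosomes. Cd14 and Ly96 (MD-2) hand lipopolysaccharide to Tlr4, while Cd180 pairs with Ly86 (MD-1). Myd88 with Tirap links the receptors to IRAK kinases and Traf6, and Ticam1 (TRIF) with Ticam2 (TRAM) forms a second branch. Both lead to Map3k7 (TAK1) with Tab1 and Tab2, and on to the IκB kinases Chuk and Ikbkb. These release the NF-κB dimers, built from Nfkb1, Nfkb2, Rel, Rela and Relb, from Nfkbia and other IκB proteins. Nfkbia and Tnfaip3 (A20) are themselves induced by NF-κB and end the signal. In the injured heart the pathway is known for starting inflammation, and macrophages and fibroblasts both use it.

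Promoter windows of RefSeq (build GRCm38.p6, 250 bases before to 50 after the start site) were found for 29 of the 39 genes. The κB consensus, searched on both strands, was in the windows of 9 of these 29 genes, or 31%, against 5.14% of all 27025 genes with a window. They are Tlr2, Tlr3, Traf3, Map3k7, Nfkb2, Rel, Nfkbia, Nfkbie and Tnfaip3. The AP-1 motif TGANTCA was in 4 (13.8%, against 8.97% of all genes), the Smad palindrome GTCTAGAC in 1, Tnfaip3 (3.45% against 0.248%), and CAGACA in 6 (20.7% against 23.6%). A κB match can overlap itself on the other strand, as the first of Tlr2 does. A match is a run of letters and not a measured binding site, and the start sites used in these cells were not measured. The windows below run from 250 bases before to 20 after the start site, 5′ to 3′, with κB matches in capitals. Tlr2 and Irak2 are shown because both rose with TGF-β1, and Nfkbia and Tnfaip3 because they hold κB matches and did not pass the edgeR test reported here in any comparison.
Tlr2 (chr3:83841589-83841858, minus strand): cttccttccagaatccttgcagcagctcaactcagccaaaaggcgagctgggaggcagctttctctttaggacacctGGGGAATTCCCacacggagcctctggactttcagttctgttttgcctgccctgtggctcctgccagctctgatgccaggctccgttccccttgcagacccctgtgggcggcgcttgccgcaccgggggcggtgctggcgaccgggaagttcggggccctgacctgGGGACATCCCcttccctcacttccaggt
Nfkbia (chr12:55492628-55492897, minus strand): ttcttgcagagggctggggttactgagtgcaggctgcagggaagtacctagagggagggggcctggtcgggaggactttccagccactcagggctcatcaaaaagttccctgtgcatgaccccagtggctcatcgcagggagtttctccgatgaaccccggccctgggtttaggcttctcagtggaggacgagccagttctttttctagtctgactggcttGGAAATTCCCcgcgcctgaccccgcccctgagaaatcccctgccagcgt
Tnfaip3 (chr10:19015391-19015660, minus strand): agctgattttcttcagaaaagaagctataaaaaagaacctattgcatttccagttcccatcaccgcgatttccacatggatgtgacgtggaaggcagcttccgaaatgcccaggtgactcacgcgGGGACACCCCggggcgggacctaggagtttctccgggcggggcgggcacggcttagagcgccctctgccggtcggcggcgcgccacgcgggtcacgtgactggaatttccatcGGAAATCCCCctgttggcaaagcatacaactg
Irak2 (chr6:113638217-113638486, plus strand): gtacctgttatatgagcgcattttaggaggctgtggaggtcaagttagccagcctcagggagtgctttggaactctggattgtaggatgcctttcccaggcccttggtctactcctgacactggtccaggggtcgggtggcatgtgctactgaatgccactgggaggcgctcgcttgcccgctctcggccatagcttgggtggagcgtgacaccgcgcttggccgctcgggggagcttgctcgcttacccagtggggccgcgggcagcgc
Tlr2 and Tnfaip3 have 2 separate capital runs each, Nfkbia has 1 and Irak2 has none.

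Levels between genes were compared on the deposited FPKM scale, which divides by gene length and library total. Averaged over the 12 libraries, Ly86 was the highest of the 39 genes at 153.5 FPKM. Tlr13 followed at 62.8 FPKM, Tlr2 at 61.9, Nfkbia at 55.7, Cd14 at 49.9 and Rela at 48.3. The lowest were Tlr5 at 1.93 FPKM, Tirap at 3.44, Ticam2 at 3.57, Rel at 4.21 and Tlr9 at 4.24. Among the endosomal receptors the mean level ran from 4.24 FPKM (Tlr9) to 62.8 (Tlr13), and among the surface receptors from 1.93 (Tlr5) to 61.9 (Tlr2). The adaptors stayed lower, between 3.44 and 15.2 FPKM, with Myd88 the highest of the 4. Spread over the libraries differed widely between genes. Rela had the narrowest range, 41.2 to 54.6 FPKM, a ratio of 1.33 between the highest and the lowest library. Tlr9 ranged from 0.196 to 8.69 FPKM (44.3-fold), Rel from 0.206 to 7.93 (38.5-fold) and Tlr8 from 2.42 to 45.0 (18.6-fold). All 3 had their lowest level in unstimulated control library 2.

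**Figure D1:**
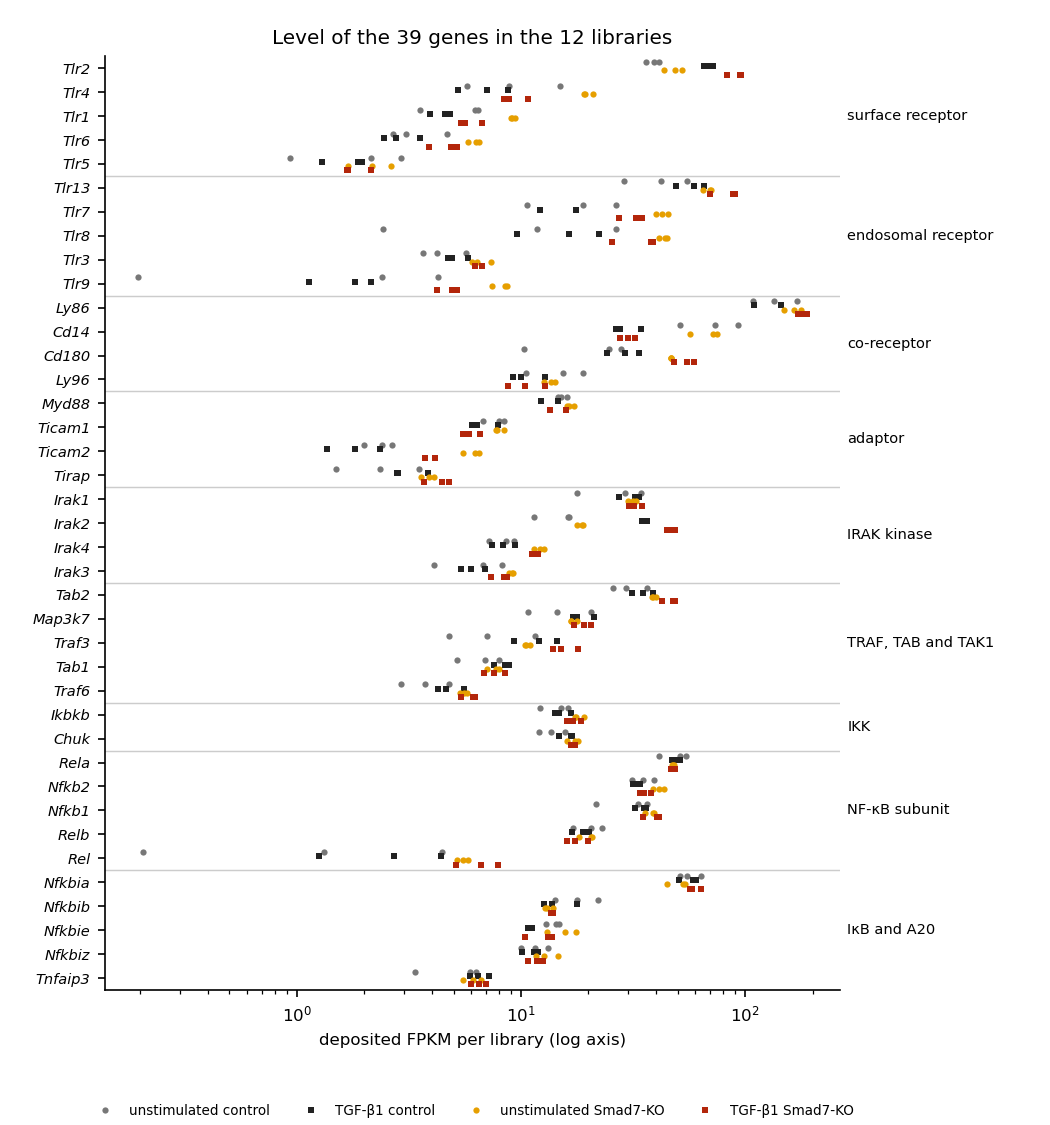
Deposited FPKM (log axis) of the 39 genes in each of the 12 libraries, 3 points per group, ordered by role and then by mean level. Ly86 has the highest mean level (153.5 FPKM) and Tlr5 the lowest (1.93 FPKM), and Tlr8, Tlr9 and Rel spread most, with their lowest point in an unstimulated control library.

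The libraries held 19056916 to 25371321 counts. Smad7 measured 71.4, 74.6 and 77.2 CPM (counts scaled to library size, TMM-normalized) in unstimulated control and 28.6, 28.4 and 31.1 in unstimulated Smad7-KO libraries. With TGF-β1 it measured 141.9 to 150.3 CPM in control and 70.0 to 80.8 in Smad7-KO. Smad7 was thus lower in each Smad7-KO group than in its control (log2 change -1.34 ± 0.09 SE unstimulated and -0.92 ± 0.09 stimulated, adjusted p = 9.02e-06 and 0.000115), but not absent. Unstimulated control libraries 2 and 3 were the least alike of all replicate pairs (correlation of log CPM 0.935), and the biological coefficient of variation of that group was 0.334 against 0.0529 to 0.137 in the other 3. Fibroblast markers were present, with Col1a1 at a mean of 292 FPKM and Dcn at 294.5 in unstimulated control. All 15 macrophage markers were above the filter too, with Lyz2 at 9633 FPKM and Adgre1 at 226 in the same group, where Pdgfra was at 10.9 FPKM. The summed level of the 8 lymphocyte markers was at most 3.30 CPM in any library. The cultures therefore carry macrophage transcripts at high levels under their fibroblast label. In bulk RNA, a change in the share of a cell type and a change in RNA per cell cannot be told apart.

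Smad7 loss in unstimulated cells raised 14 of the 39 genes and lowered none at an adjusted p of 0.05 or less (edgeR's quasi-likelihood test, Benjamini-Hochberg over all tested genes). Among all tested genes 25.8% passed this test, 12.1% as higher and 13.7% as lower. The 14 were all 5 endosomal receptors, the surface receptors Tlr1, Tlr4 and Tlr6, the co-receptor Cd180, the adaptor Ticam2, the kinases Irak2 and Irak4, and Traf6 and Tab2. These calls come from a fit on all 12 libraries. Fitted on only the 6 libraries of this comparison, edgeR passed 1 of the 39, Ticam2 (adjusted p = 0.0101), and 4.54% of all tested genes. The same kind of fit for stimulated cells passed 18 of the 39 and 30.8% of all tested genes. These 18 held all 5 endosomal receptors, and also Tlr1, Ly86, Tirap, Irak3, Traf6 and Rel, which the fit on all 12 did not pass there. The median log2 change of the 39 in unstimulated cells was 0.30, against -0.02 for all tested genes. In 22 of the 39 genes the 3 libraries of a group did not overlap with those of the other, as in 41.3% of all tested genes. In TGF-β1-stimulated cells Smad7 loss raised 8 and lowered none, where 13.0% of all tested genes passed, 5.72% as higher and 7.23% as lower. Libraries did not overlap in 20 of the 39, against 44.9% of all tested genes. These 8 were Tlr2, Tlr6, Tlr7, Cd180, Ticam2, Irak2, Irak4 and Tab2, and the median of the 39 was 0.34, against -0.02 for all tested genes. Both comparisons share no library, but the fit on all 12 gave them a common estimate of the spread. Their calls are therefore not independent. In both, 7 of the 39 genes (17.9%) were higher and 0 lower. Of all 15150 tested genes 1629 (10.8%) passed in both, with 747 higher in both and 881 lower in both. All but 1 of the 1629 kept their direction.

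**Figure D2:**
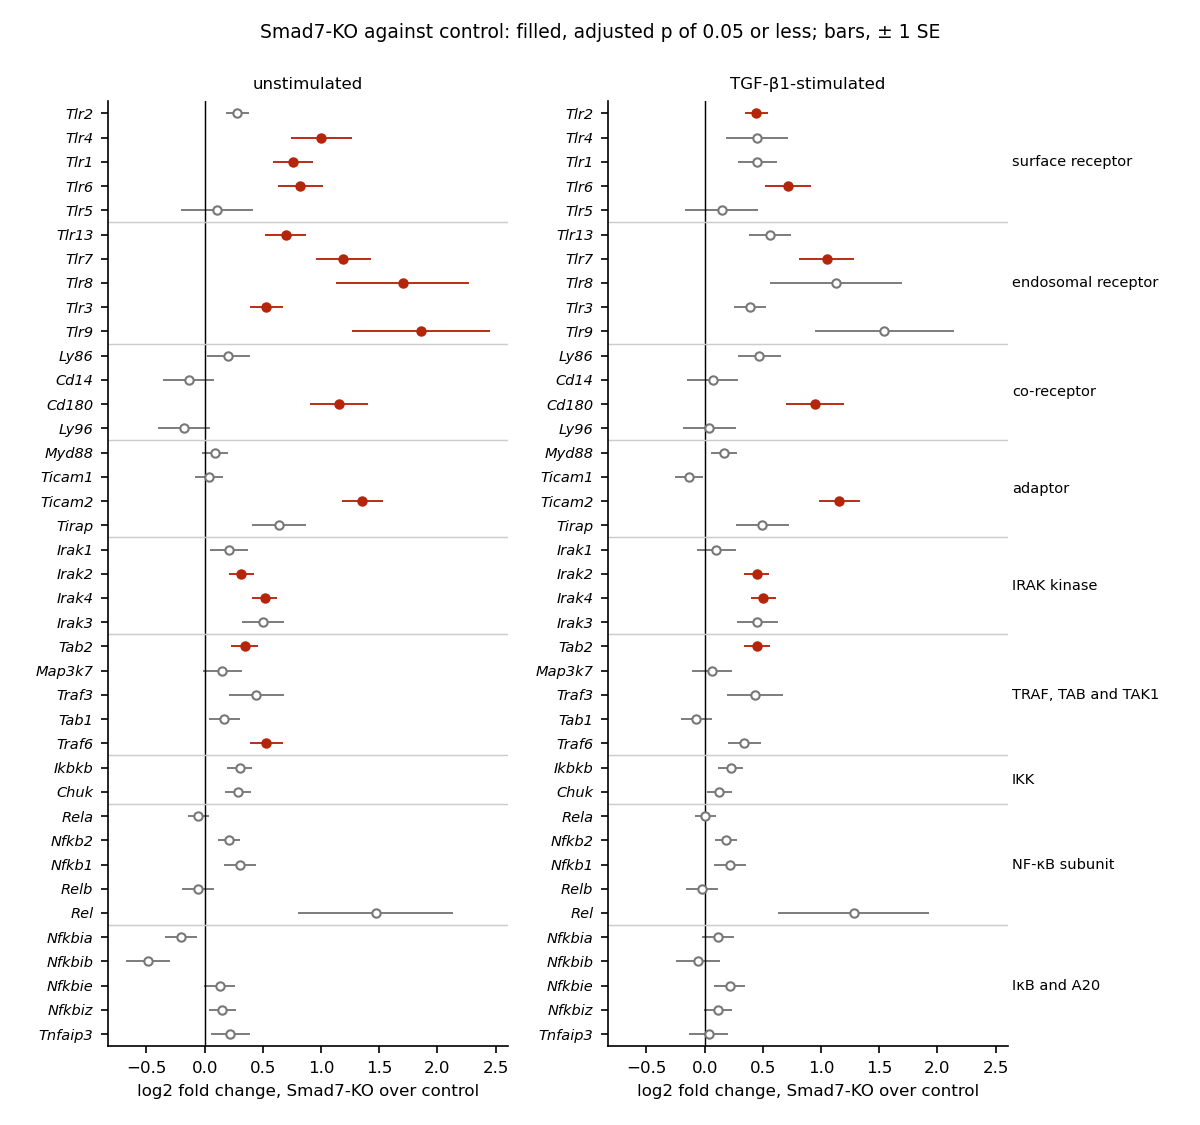
Log2 fold change of Smad7-KO over control for the 39 genes, unstimulated on the left and with TGF-β1 on the right; bars are 1 SE and filled points have an adjusted p of 0.05 or less. The filled points, 14 on the left and 8 on the right, are all above 0, and in this fit none is an IκB kinase, an NF-κB subunit or an inhibitor.

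Ticam2, the adaptor that links Tlr4 to the TRIF branch, changed most clearly. Ticam2 measured 5.51, 5.09 and 5.95 CPM in unstimulated control, 5.42, 3.17 and 4.18 in TGF-β1 control, 14.5, 15.2 and 12.8 in unstimulated Smad7-KO and 8.82, 9.91 and 9.81 in TGF-β1 Smad7-KO libraries. Every Smad7-KO library was above every control library, stimulated or not. The log2 change was 1.36 ± 0.18 SE unstimulated (adjusted p = 0.000609) and 1.16 ± 0.18 stimulated (adjusted p = 0.00203). This call held in all 10 alternative analyses and in all 12 that left out 1 library, in both comparisons. In the annotation, 838 of the exonic bases of Ticam2 (14.5%) are shared on the same strand with Tmed7, whose own log2 change was 0.14 ± 0.10 (adjusted p = 0.304) unstimulated and 0.07 ± 0.10 (adjusted p = 0.672) stimulated. The other 3 adaptors did not pass: 38.5, 40.3 and 34.6 CPM of Myd88 in unstimulated control stood against 39.2, 41.9 and 39.7 in unstimulated Smad7-KO libraries, which overlap (log2 change 0.09 ± 0.11, adjusted p = 0.533). With TGF-β1 Myd88 measured 29.6, 35.8 and 35.3 CPM in control and 39.5, 33.7 and 39.8 in Smad7-KO libraries.

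Irak4, the kinase that Myd88 recruits first, was the steadiest of the kinases when single libraries were left out. Irak4 measured 28.7, 27.03 and 30.6 CPM in unstimulated control, 31.8, 25.3 and 28.3 in TGF-β1 control, 39.1, 41.4 and 42.99 in unstimulated Smad7-KO and 41.4, 40.7 and 39.02 in TGF-β1 Smad7-KO libraries. The groups did not overlap in either comparison, and the log2 change was 0.52 ± 0.10 unstimulated (adjusted p = 0.00642) and 0.51 ± 0.10 stimulated (adjusted p = 0.00903). It lost its call in none of the analyses that left out 1 library. Fitted on only the 6 libraries of a comparison, edgeR did not pass Irak4 unstimulated (0.51, adjusted p = 0.0605) but passed it stimulated (0.51, adjusted p = 0.00603). Irak4 shares 395 exonic bases (7.87%) with Twf1 on the opposite strand, and whether counting used strand is not stated. Twf1 did not pass in either comparison (log2 change -0.02 ± 0.08 and 0.00 ± 0.08, adjusted p = 0.844 and 0.994). Irak1 and Irak3 did not pass, with log2 changes of 0.21 ± 0.17 and 0.50 ± 0.18 unstimulated.

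The endosomal receptors had the largest median among the roles, a log2 change of 1.19 unstimulated and 1.05 stimulated. Tlr7, a sensor of single-stranded RNA, passed in both comparisons. Tlr7 measured 71.98, 45.3 and 98.8 CPM in unstimulated control, 67.5, 46.9 and 67.6 in TGF-β1 control, 174, 164.5 and 155 in unstimulated Smad7-KO and 128.5, 139 and 109 in TGF-β1 Smad7-KO libraries. No Smad7-KO library overlapped with a control library of the same stimulation, and the log2 change was 1.19 ± 0.24 (adjusted p = 0.00629) and 1.05 ± 0.24 (adjusted p = 0.015). Tlr13 measured 167, 128 and 215 CPM in unstimulated control, 260.3, 198 and 236 in TGF-β1 control, 279.7, 285 and 262 in unstimulated Smad7-KO and 364, 374 and 287 in TGF-β1 Smad7-KO libraries. Tlr13, which senses bacterial ribosomal RNA, was 0.70 ± 0.18 higher unstimulated (adjusted p = 0.0197), while the stimulated value of 0.56 ± 0.18 missed the threshold (adjusted p = 0.0612).

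Tlr3, the receptor for double-stranded RNA, changed less. Tlr3 measured 17.8, 17.1 and 23.5 CPM in unstimulated control, 24.5, 20.3 and 21.1 in TGF-β1 control, 27.1, 31.6 and 25.8 in unstimulated Smad7-KO and 29.4, 29.5 and 27.3 in TGF-β1 Smad7-KO libraries. The libraries did not overlap in either comparison, and Tlr3 passed in unstimulated cells (log2 change 0.53 ± 0.14, adjusted p = 0.0216, against 0.39 ± 0.14, adjusted p = 0.0897, with TGF-β1, which did not pass). Fitted on only the 6 libraries of a comparison, edgeR passed it stimulated (0.40, adjusted p = 0.0195) and not unstimulated (adjusted p = 0.111). Tlr3 shares 381 exonic bases (7.32%) with an antisense gene.

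Tlr8 and Tlr9 had the largest log2 changes of the 39 genes in unstimulated cells, with wide errors. Tlr8 measured 39.4, 9.03 and 87.2 CPM in unstimulated control, 75.3, 32.7 and 55.7 in TGF-β1 control, 149.5, 153 and 140.0 in unstimulated Smad7-KO and 132, 136.5 and 89.1 in TGF-β1 Smad7-KO libraries. Tlr9 measured 8.16, 0.743 and 14.2 CPM in unstimulated control, 6.19, 3.91 and 7.34 in TGF-β1 control, 25.7, 29.2 and 29.98 in unstimulated Smad7-KO and 17.4, 18.4 and 14.96 in TGF-β1 Smad7-KO libraries. The unstimulated Smad7-KO libraries lay above all controls for both receptors, but the controls themselves spread from 9.03 to 87.2 CPM for Tlr8 and from 0.743 to 14.2 for Tlr9. The log2 change of Tlr8 was 1.70 ± 0.57 (adjusted p = 0.0489) and that of Tlr9 1.86 ± 0.59 (adjusted p = 0.0416), both in unstimulated cells. With 1 library left out, the call of Tlr8 held in 2 of 12 analyses and that of Tlr9 in 3 of 12, with log2 changes of 1.22 to 2.60 and 1.34 to 2.62. Tlr8 kept it without unstimulated control library 2 or 3, and Tlr9 without unstimulated control library 2 or 3 or TGF-β1 control library 2. With TGF-β1 the log2 changes of 1.13 ± 0.56 and 1.54 ± 0.60 did not pass (adjusted p = 0.212 and 0.113). Fitted on only the 6 stimulated libraries, edgeR passed Tlr8 (1.14, adjusted p = 0.0114) and Tlr9 (1.55, adjusted p = 0.00087). The same kind of fit on the 6 unstimulated libraries passed neither (adjusted p = 0.15 and 0.156).

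Among the surface receptors, Tlr6 and Tlr1 are the partners of Tlr2 in sensing lipopeptides. Tlr6 measured 7.80, 7.60 and 11.7 CPM in unstimulated control, 9.06, 7.12 and 6.32 in TGF-β1 control, 14.96, 16.2 and 16.8 in unstimulated Smad7-KO and 13.7, 12.98 and 10.3 in TGF-β1 Smad7-KO libraries. Tlr1 measured 16.1, 10.2 and 16.3 CPM in unstimulated control, 11.9, 10.3 and 12.6 in TGF-β1 control, 23.6, 24.8 and 24.1 in unstimulated Smad7-KO and 17.9, 15.3 and 14.5 in TGF-β1 Smad7-KO libraries. In both comparisons and for both genes the Smad7-KO libraries stood above the control libraries of the same stimulation. Tlr6 passed in both (log2 change 0.82 ± 0.19, adjusted p = 0.0136, and 0.71 ± 0.20, adjusted p = 0.0335) and Tlr1 in unstimulated cells (0.76 ± 0.17, adjusted p = 0.0105, against 0.45 ± 0.17, adjusted p = 0.105, with TGF-β1). Tlr4, the receptor for lipopolysaccharide, was 1.00 ± 0.26 higher in unstimulated Smad7-KO cells (adjusted p = 0.0209) and 0.45 ± 0.26 with TGF-β1 (adjusted p = 0.279). Fitted on only the 6 stimulated libraries, edgeR passed Tlr1 (0.46, adjusted p = 0.0242) and Tlr6 (0.72, adjusted p = 0.012) but not Tlr4 (adjusted p = 0.0648). On only the 6 unstimulated libraries none of them passed (adjusted p = 0.0641 to 0.0882). Tlr5, the flagellin receptor and the lowest of the 39 genes, showed log2 changes of 0.10 ± 0.31 and 0.15 ± 0.31 in the fit on all libraries, with overlapping libraries.

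Cd180, a surface receptor homologue that works with Ly86, rose in both comparisons. Cd180 measured 63.9, 29.8 and 71.2 CPM in unstimulated control, 87.1, 63.7 and 75.99 in TGF-β1 control, 122, 123 and 123 in unstimulated Smad7-KO and 148, 159 and 129.8 in TGF-β1 Smad7-KO libraries. The lowest control library, again unstimulated control library 2, was far below the other 2 of its group, and no Smad7-KO library overlapped with a control library. The log2 change was 1.15 ± 0.25 (adjusted p = 0.00943) and 0.95 ± 0.25 (adjusted p = 0.0292). Its partner Ly86 did not pass (0.20 ± 0.19 and 0.47 ± 0.19, adjusted p = 0.411 and 0.12), nor did Cd14 (-0.14 ± 0.22 and 0.07 ± 0.22) or Ly96 (-0.18 ± 0.23 and 0.04 ± 0.23).

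Below the receptors, Tab2 passed in both comparisons and Traf6 in unstimulated cells. Tab2 measured 126.5, 122 and 153 CPM in unstimulated control, 166, 135 and 152 in TGF-β1 control, 167, 168 and 175 in unstimulated Smad7-KO and 212, 218 and 189 in TGF-β1 Smad7-KO libraries. Tab2, which holds TAK1 to ubiquitin chains, was 0.34 ± 0.11 higher unstimulated (adjusted p = 0.0478) and 0.45 ± 0.11 higher stimulated (adjusted p = 0.0248). Traf6 measured 22.6, 19.5 and 28.1 CPM in unstimulated control, 33.7, 25.95 and 28.2 in TGF-β1 control, 33.8, 35.02 and 32.8 in unstimulated Smad7-KO and 38.01, 39.4 and 33.8 in TGF-β1 Smad7-KO libraries. Traf6, the ubiquitin ligase of the pathway, was 0.53 ± 0.14 higher unstimulated (adjusted p = 0.0235) and 0.34 ± 0.14 stimulated, which did not pass (adjusted p = 0.139). Fitted on only the 6 libraries of a comparison, edgeR passed Traf6 stimulated (0.35, adjusted p = 0.0464) and not unstimulated (adjusted p = 0.0994). Irak2 rose by 0.32 ± 0.11 (adjusted p = 0.0476) and 0.45 ± 0.10 (adjusted p = 0.0168), and Tlr2 by 0.44 ± 0.10 in stimulated cells (adjusted p = 0.0138), against 0.28 ± 0.10 unstimulated (adjusted p = 0.0554). Left out singly, each of 11 libraries ended the unstimulated call of Irak2, all but unstimulated control library 3, at log2 changes down to 0.21.

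**Figure D3:**
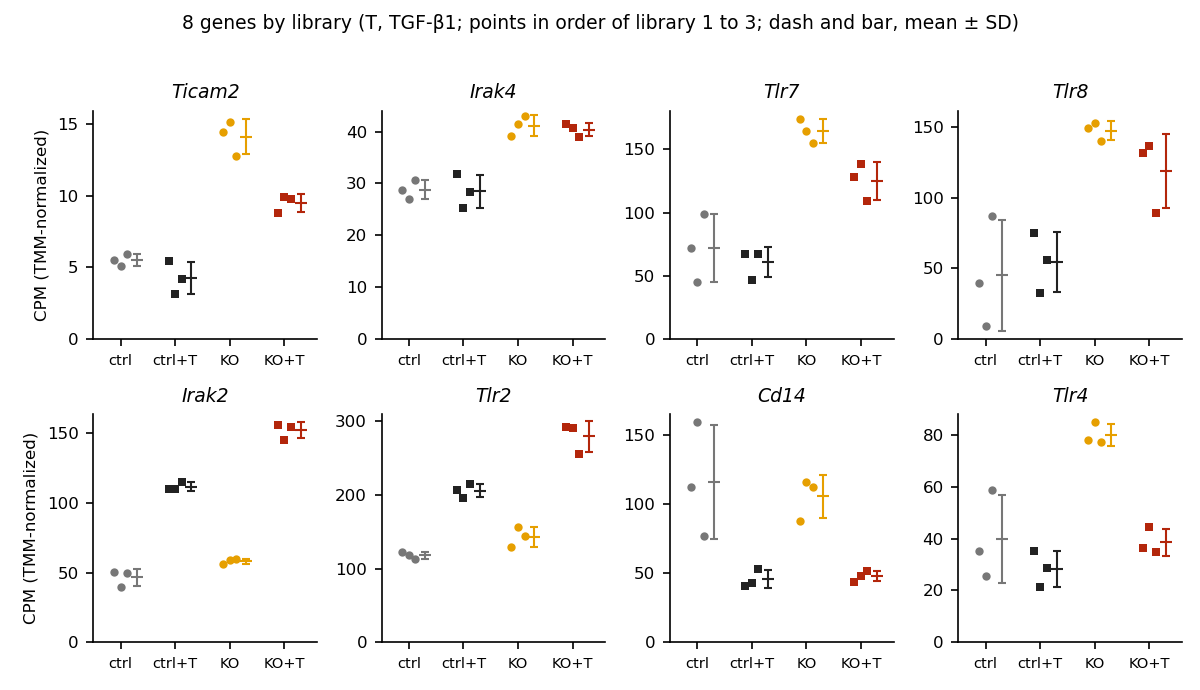
TMM-normalized CPM of 8 genes in each library (points, in the order of libraries 1 to 3; dash and bar, mean ± SD of the 3), with a linear axis from 0. Ticam2 and Irak4 are higher in all 6 Smad7-KO libraries than in all 6 control libraries, Irak2 and Tlr2 are higher in all 6 TGF-β1 libraries than in the unstimulated ones, and Cd14 is lower in them.

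No NF-κB subunit, inhibitor or IκB kinase passed in either comparison of Smad7 loss in the edgeR fit on all libraries. Rela measured 145, 122 and 133 CPM in unstimulated control, 128.5, 127 and 137 in TGF-β1 control, 128, 129.5 and 128 in unstimulated Smad7-KO and 131, 134 and 129.6 in TGF-β1 Smad7-KO libraries. Rela, the main activating subunit, differed by -0.05 ± 0.09 unstimulated and 0.01 ± 0.09 stimulated on the log2 scale, with overlapping libraries. Nfkb1 measured 135, 96.7 and 144.5 CPM in unstimulated control, 146, 131 and 143 in TGF-β1 control, 157, 145.5 and 160.4 in unstimulated Smad7-KO and 172, 169.9 and 147 in TGF-β1 Smad7-KO libraries. For Nfkb1 the Smad7-KO libraries lay above the controls in both comparisons, but the log2 changes of 0.30 ± 0.14 and 0.22 ± 0.14 did not pass (adjusted p = 0.117 and 0.312). Rel, which is most active in immune cells, showed log2 changes of 1.47 ± 0.66 unstimulated and 1.28 ± 0.65 stimulated without passing (adjusted p = 0.111 and 0.217). Its control libraries spread from 0.629 to 11.9 CPM.

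Among the inhibitors, Nfkbia measured 84.6, 109 and 77.4 CPM in unstimulated control, 78.9, 94.3 and 91 in TGF-β1 control, 69.8, 84.2 and 82.3 in unstimulated Smad7-KO and 92.9, 91.7 and 101 in TGF-β1 Smad7-KO libraries. The groups overlapped in both comparisons, with log2 changes of -0.20 ± 0.14 and 0.11 ± 0.14 (adjusted p = 0.278 and 0.6). Tnfaip3 measured 35.8, 22.7 and 37.6 CPM in unstimulated control, 43.6, 36.5 and 39.3 in TGF-β1 control, 33.9, 40.6 and 37.7 in unstimulated Smad7-KO and 37.3, 44.1 and 40.9 in TGF-β1 Smad7-KO libraries. Tnfaip3 overlapped as well, with 0.22 ± 0.17 and 0.03 ± 0.17. Nfkbib had the lowest log2 change of the 39 genes in unstimulated cells, -0.49 ± 0.19 (adjusted p = 0.073). Chuk and Ikbkb stood at 0.29 ± 0.11 and 0.30 ± 0.10 unstimulated (adjusted p = 0.0714 and 0.0535). This depended on the fit: DESeq2 passed Chuk, Ikbkb and Nfkb2 in unstimulated cells (adjusted p = 0.0417, 0.0173 and 0.0488), and limma on log2(FPKM + 1) passed Rel (1.39, adjusted p = 0.0477). Without unstimulated control library 3, Chuk (0.35), Ikbkb (0.36), Nfkb1 (0.42) and Rel (2.78) passed as higher and Nfkbib (-0.66) as lower, with adjusted p of 0.00205 to 0.0227. In stimulated cells Rel passed as higher in the edgeR fit on only the 6 libraries of the comparison (1.29, adjusted p = 0.0199), and in the fits without unstimulated control library 2 (1.30, adjusted p = 0.0346) or 3 (1.28, adjusted p = 0.047).

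Some macrophage markers moved in the same direction as these genes. Of the 15, 8 were higher and none lower with Smad7 loss in unstimulated cells, where 12.1% of all tested genes were higher. With TGF-β1, 6 were higher and none lower, against 5.72% higher. The other 7 and 9 did not pass, and 4 and 1 of the 15 had negative log2 changes, down to -0.61 and -0.03. The summed level of the 15 was 17290 to 27070 CPM in unstimulated control, 17330 to 20050 in TGF-β1 control, 24640 to 27010 in unstimulated Smad7-KO and 24030 to 27030 in TGF-β1 Smad7-KO libraries. The unstimulated Smad7-KO range thus lay within that of unstimulated control, while the TGF-β1 Smad7-KO range lay above that of TGF-β1 control. The highest unstimulated control sum was that of library 2, and libraries 1 and 3 stood at 22780 and 17290 CPM. The marker Itgam, an integrin of myeloid cells, changed most (log2 change 1.36 ± 0.23 and 1.02 ± 0.23), and Adgre1 (F4/80) was 0.64 ± 0.16 and 0.60 ± 0.16 higher. Endothelial markers went the other way, with 8 of 11 tested lower and 1 higher in both comparisons, and a summed level of 297 to 348 CPM in control against 52.0 to 62.3 in Smad7-KO libraries. The part of either cell type in the changes of the receptor genes was not tested.

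The direction of change also moved with gene length. Of the genes that passed with Smad7 loss in unstimulated cells, 13.4% were higher in the shortest of 3 equal length classes and 79.2% in the longest, and these classes hold 5 and 13 of the 39 genes. Unstimulated control library 2 stood out here, with its longest genes 1.09 lower than its shortest on the log2 scale relative to the 12-library mean (-0.41 to 0.37 in the others). With the length trend of each library removed, 14 of the 39 genes passed in unstimulated cells, again all higher, and the median was 0.17 against -0.06 for all tested genes, of which 25% passed. Traf6, Tab2 and Tlr3 then no longer passed (log2 change 0.17, 0.12 and 0.33, adjusted p = 0.28, 0.364 and 0.0506), while Irak3, Ly86 and Tirap did (0.48, 0.53 and 0.45). In stimulated cells 18 passed, with a median of 0.37 against 0.07. The share of all tested genes that passed rose too, to 22% from 13.0%, and the share of higher genes among them to 65.6% from 44.1%. Nfkbia (0.37, adjusted p = 0.0157) and Nfkbie (0.38, adjusted p = 0.0473) were now among the 18. Removing the GC trend as well also brought in Nfkb2 (0.40) and Rela (0.27) in stimulated and Nfkb2 (0.31) in unstimulated cells. The log2 changes of Ticam2, Tlr7, Cd180 and Irak4 kept their calls in both.

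**Figure D4:**
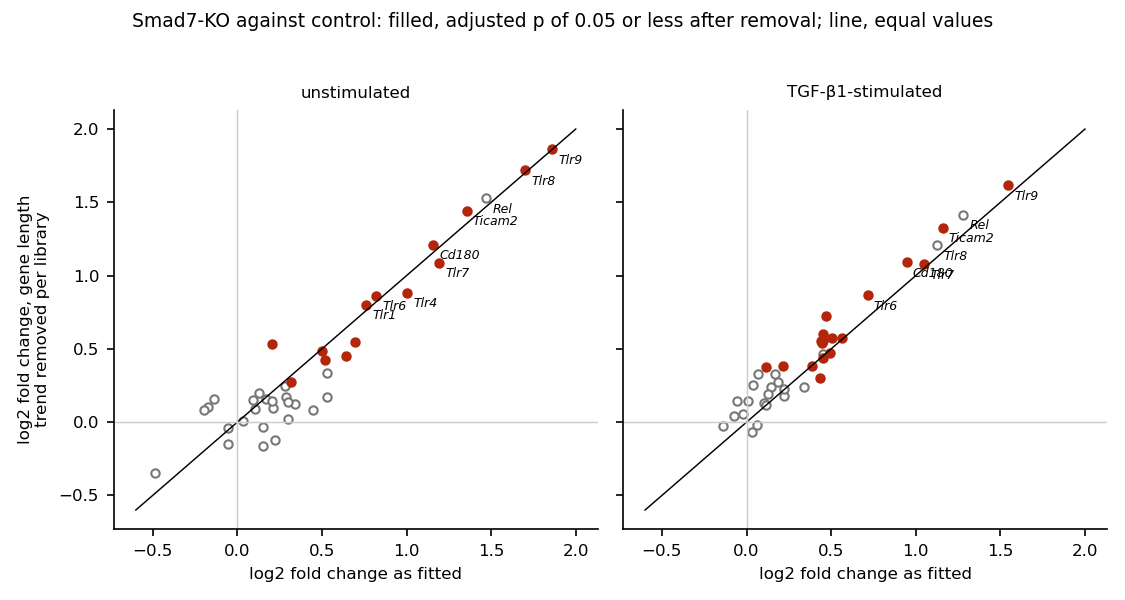
Log2 fold change of Smad7-KO over control as fitted (horizontal) and with each library's gene length trend removed (vertical) for the 39 genes, with a line of equal values; filled points have an adjusted p of 0.05 or less after removal. Tlr9, Tlr8, Ticam2 and Cd180 stay near the line in unstimulated cells, and 18 points are filled on the right.

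TGF-β1 in control cells raised Irak2 and Tlr2 and lowered Cd14, 3 of the 39 genes, where 8.37% of all tested genes passed, 5.04% as higher and 3.33% as lower. In Smad7-KO cells it raised Irak2 and Tlr2 and lowered Cd14, Tlr4 and Tlr1, 5 of the 39 against 10.2%, 5.33% as higher and 4.90% as lower. The median log2 change of the 39 was -0.03 in control cells, the same as for all tested genes, and 0.03 in Smad7-KO cells, against -0.01. These comparisons share their libraries with those of Smad7 loss. Irak2 measured 50.5, 39.4 and 49.9 CPM in unstimulated control, 109.6, 109.5 and 115 in TGF-β1 control, 55.7, 58.9 and 59.4 in unstimulated Smad7-KO and 156, 145 and 154 in TGF-β1 Smad7-KO libraries. Irak2, the kinase that sustains Myd88 signalling, rose by 1.26 ± 0.11 in control (adjusted p = 2.14e-05) and by 1.39 ± 0.11 in Smad7-KO cells (adjusted p = 8.01e-06), with no overlap.

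Tlr2 measured 122, 119 and 113 CPM in unstimulated control, 207, 196 and 214.5 in TGF-β1 control, 129, 156 and 145 in unstimulated Smad7-KO and 293, 290.5 and 256 in TGF-β1 Smad7-KO libraries. Every stimulated library was above every unstimulated one, and the highest 3 were the TGF-β1 Smad7-KO libraries. The log2 change was 0.80 ± 0.10 in control (adjusted p = 0.000326) and 0.96 ± 0.10 in Smad7-KO cells (adjusted p = 7.14e-05). Cd14 measured 112.5, 159 and 77.1 CPM in unstimulated control, 41, 43.3 and 53.1 in TGF-β1 control, 88.2, 116 and 112 in unstimulated Smad7-KO and 44, 48.2 and 51.8 in TGF-β1 Smad7-KO libraries. All 6 stimulated libraries were below all 6 unstimulated ones, which ranged from 77.1 to 159 CPM. Cd14 fell by 1.34 ± 0.22 on the log2 scale in control (adjusted p = 0.00264) and by 1.14 ± 0.22 in Smad7-KO cells (adjusted p = 0.00633).

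Tlr4 measured 35.4, 25.4 and 58.6 CPM in unstimulated control, 35.1, 21.2 and 28.5 in TGF-β1 control, 77.9, 84.7 and 77.1 in unstimulated Smad7-KO and 36.3, 44.6 and 34.9 in TGF-β1 Smad7-KO libraries. In Smad7-KO cells TGF-β1 lowered Tlr4 with no overlap (log2 change -1.05 ± 0.26, adjusted p = 0.0246), and in control cells the libraries overlapped (-0.50 ± 0.26, adjusted p = 0.33). Tlr1 showed -0.60 ± 0.17 in Smad7-KO (adjusted p = 0.0431) and -0.30 ± 0.17 in control cells (adjusted p = 0.379). The calls of Tlr4 and Tlr1 in Smad7-KO cells ended without any 1 of the 6 Smad7-KO libraries, with log2 changes of -1.16 to -0.99 and -0.70 to -0.55 over all libraries left out singly. That of Tlr1 also ended without TGF-β1 control library 1 or 3. Fitted on only the 6 Smad7-KO libraries, edgeR passed Tlr4 (-1.04, adjusted p = 4.66e-07) and Tlr1 (-0.59, adjusted p = 0.000383). Irak2, Tlr2 and Cd14 passed whichever library was left out, in both comparisons, but Cd14 did not pass in control cells when only the 6 libraries of that comparison were fitted (-1.35, adjusted p = 0.0582). In the edgeR fit on all libraries no NF-κB subunit, inhibitor or IκB kinase passed in either, and the values of Rela, Nfkb1, Nfkbia and Tnfaip3 above overlap between stimulated and unstimulated control libraries. In Smad7-KO cells Nfkb1 and Tnfaip3 overlapped as well, while the stimulated libraries lay above the unstimulated ones for Nfkbia (log2 change 0.28 ± 0.14, adjusted p = 0.305) and, narrowly, for Rela (0.04 ± 0.09, adjusted p = 0.924). Fitted on only the 6 libraries of that comparison, Nfkbia passed (0.28, adjusted p = 0.0145). With the length trend removed, Nfkbie passed as lower in control cells (-0.41, adjusted p = 0.0491) and Nfkbia as higher in Smad7-KO cells (0.32, adjusted p = 0.0491). Without unstimulated control library 3, Rel (1.79) passed as higher and Nfkbib (-0.50) as lower in control cells.

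**Figure D5:**
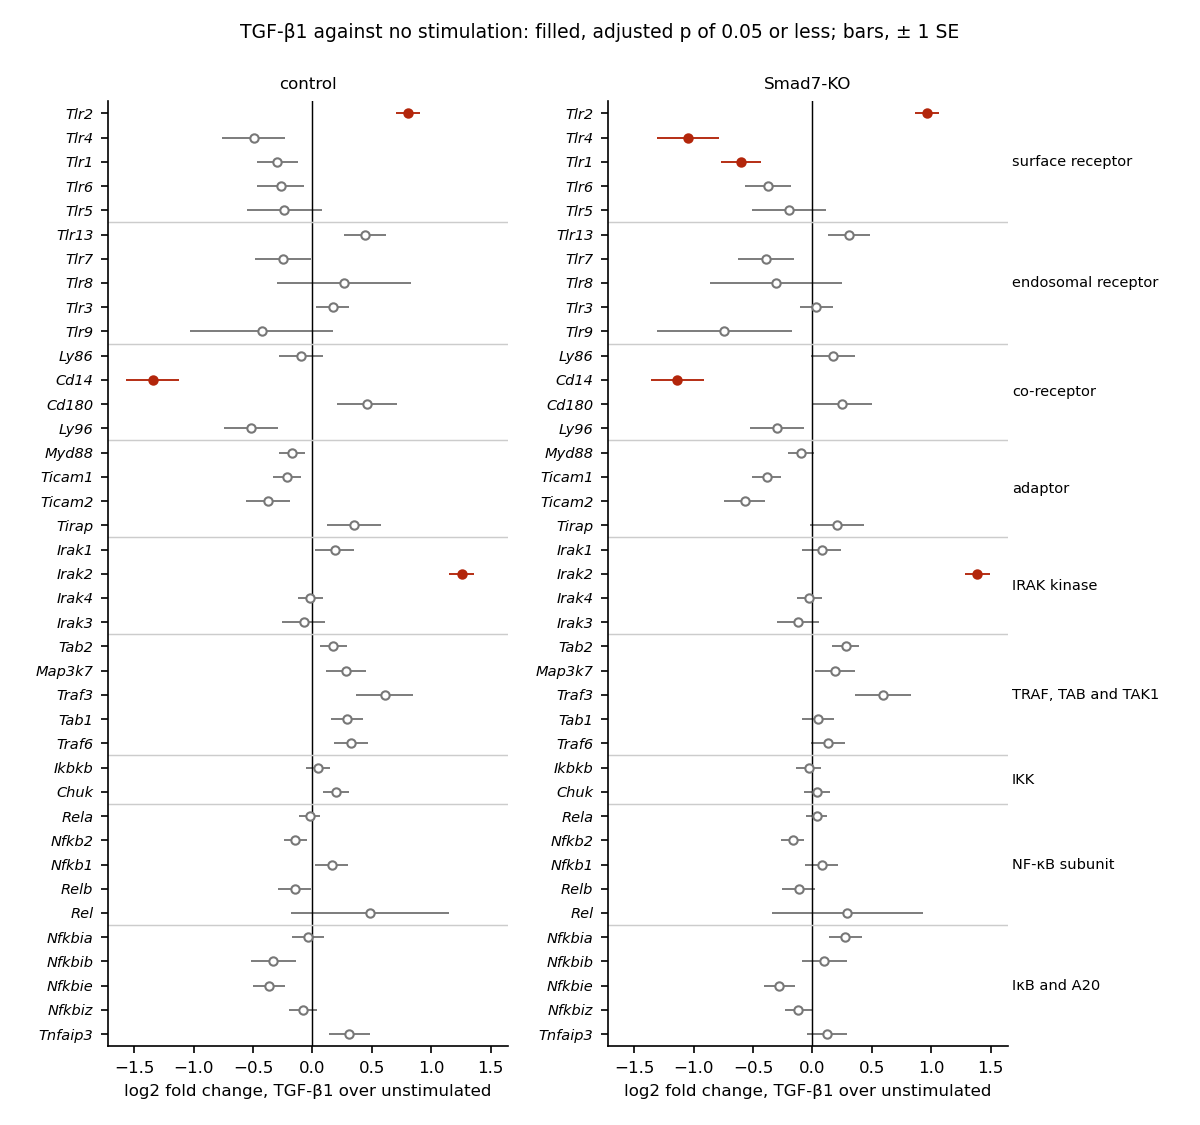
Log2 fold change of TGF-β1 over no stimulation for the 39 genes in control (left) and Smad7-KO cells (right); bars are 1 SE and filled points have an adjusted p of 0.05 or less. Irak2 and Tlr2 are filled above 0 and Cd14 below 0 on both sides, and Tlr4 and Tlr1 are filled on the right.

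Whether Smad7 loss changed the response to TGF-β1 was tested as an interaction. None of the 39 genes passed in edgeR, and none had an unadjusted p under 0.05, with 0.134 the lowest, against 2.59% of all tested genes under 0.05. DESeq2 and limma also called 0. Of all tested genes 0.0198% passed. The difference between the Tlr4 responses in control and Smad7-KO cells was thus not shown at this number of libraries.

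Further genes of the pathway were taken from a list of 49, of which 47 were tested. With Smad7 loss 11 were higher and 2 lower in unstimulated cells, where 25.8% of all tested genes passed, 12.1% as higher and 13.7% as lower. With TGF-β1, Smad7 loss left 8 higher and 2 lower, where 13.0% passed, 5.72% as higher and 7.23% as lower. The TNF receptor Tnfrsf1b rose by 0.95 ± 0.11 and 0.72 ± 0.11, the kinase Ikbke by 0.89 ± 0.17 and 0.71 ± 0.17 and the ubiquitin ligase Peli2 by 0.57 ± 0.12 and 0.77 ± 0.12. Birc3 rose by 0.61 ± 0.15 unstimulated, and Sigirr, a receptor that dampens Toll-like signals, fell by 2.61 ± 0.61 with TGF-β1. TGF-β1 itself raised 2 and lowered 3 of the 47 in control cells, and raised 3 and lowered 5 in Smad7-KO cells. Of all tested genes 8.37% and 10.2% passed there. Tnip3, an A20-binding inhibitor, fell by 1.55 ± 0.22 and 1.49 ± 0.22, and Ikbke fell by 0.95 ± 0.17 and 1.14 ± 0.17. Map3k8 fell by 0.55 ± 0.11 in control cells and Traf1 fell by 1.03 ± 0.29 in Smad7-KO cells, while Tnfrsf1b rose by 0.73 ± 0.11 in control cells.

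Of 36 textbook NF-κB targets 34 were tested, and they moved in both directions. Smad7 loss raised 3 and lowered 5 in unstimulated cells, where 25.8% of all tested genes passed. With TGF-β1, Smad7 loss raised 3 and lowered 6, where 13.0% passed. Unstimulated, the endothelial adhesion molecule Sele fell by 3.50 ± 0.43 and Gadd45b fell by 0.89 ± 0.14, while Ccl5 rose by 1.12 ± 0.35 and Tnfaip2 by 0.93 ± 0.15. With TGF-β1, Sele fell by 2.17 ± 0.43, the chemokine Cxcl10 rose by 1.68 ± 0.45, Cxcl1 fell by 1.31 ± 0.33 and Gadd45b fell by 1.02 ± 0.14. The 11 tested endothelial markers had median log2 changes of -3.48 unstimulated and -2.80 with TGF-β1. Their part in the fall of Sele was not tested. TGF-β1 raised 5 and lowered 4 in control cells, and raised 6 and lowered 5 in Smad7-KO cells, against 8.37% and 10.2% of all tested genes that passed. The cytokine Il6 measured 18.7, 27.7 and 14.7 CPM in unstimulated control and 74.3, 85.2 and 77.6 in TGF-β1 control libraries, and it rose by 1.96 ± 0.19 there and by 2.02 ± 0.19 in Smad7-KO cells. Lif rose by 1.98 ± 0.19 and 1.79 ± 0.19, the collagenase Mmp13 fell by 2.31 ± 0.16 and 2.22 ± 0.16, and Cxcl2 fell by 2.00 ± 0.51 and 1.98 ± 0.53. Il1b fell by 1.80 ± 0.43 in Smad7-KO cells. Ccl2 (log2 change -0.16 ± 0.31 and 0.02 ± 0.31) and Vcam1 (-0.01 ± 0.10 and -0.07 ± 0.10) did not pass with TGF-β1, nor with Smad7 loss.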

How the data were processed

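RNA-Seq measured 12 libraries of cultured cardiac fibroblasts, 3 in each of 4 groups taken from the sample titles. Unnormalized counts of reads per gene, in whole numbers, were deposited by the authors beside FPKM, which are those counts scaled to gene length and library total. Polyadenylated RNA was sequenced as paired-end reads, and the submitters' processing notes name CASAVA, TopHat2 2.0, Cufflinks 2.1.1 and HTSeq 0.6.1 with the builds mm10 and GRCm38.p6. Whether counting used strand is not given in the sources used here, so overlapping genes are uncertain. A total of 19056916 to 25371321 counts per library limits the precision of the lowest genes.

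Counts were tested with edgeR 4.0.16 in R 4.3.3 (filterByExpr with a minimum count of 10, TMM scaling, robust quasi-likelihood fit on all 12 libraries, Benjamini-Hochberg over 15150 genes, threshold 0.05). Standard errors come from the coefficient and its F statistic. The genes and lists were chosen with earlier results of these data known. Values per library are given for genes that passed in any of the 4 pairwise comparisons and for 9 preset genes, and from other lists for at most the 4 largest changes per comparison and 4 preset targets. Alternatives were DESeq2 1.42.0, its size factors in edgeR, no filter, only the libraries of a comparison, limma 3.58.1 on log2(FPKM + 1) or log2(FPKM + 0.1), the replicate number as a block, removal of each library's gene length trend (loess, span 0.3) with and without the block, and leaving out each library. Removal of GC and length trends together was added after seeing the data. The procedures were tested on simulated data, drawn for each gene with the same spread in all 12 libraries. The unequal spread of the 4 groups was not covered. All per-sample columns were used.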

Additional observations from a re-analysis of the deposited data

How the results depend on the processing

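Counts below are of the 39 genes that passed, with the share of all tested genes in brackets. For Smad7 loss in unstimulated cells (14 [25.8%] in the analysis reported above), fitting edgeR to its own 6 libraries left 1 [4.54%], Ticam2 (adjusted p = 0.0101), and leaving out single libraries gave 5 to 23. The lowest was without unstimulated control library 1 [12.9%] and the highest without unstimulated control library 3 [51.5%], and each unstimulated Smad7-KO library left out gave 6 [9.9% to 10.6%]. For Smad7 loss in TGF-β1-stimulated cells (8 [13.0%]), only its own 6 libraries gave 18 [30.8%], limma gave 4 with either pseudocount [12.5% and 12.3%], removal of the length trend 18 [22%], the same with the replicate block 17 [20.1%], and removal of length and GC trends 20 [22.4%]. Leaving out single libraries gave 2 to 18, with 2 without TGF-β1 control library 2 [5.7%] or TGF-β1 Smad7-KO library 1 [6.07%], 3 without TGF-β1 Smad7-KO library 2 [6.2%], 4 without TGF-β1 control library 3 [7.25%], and 18 and 14 without unstimulated control libraries 2 and 3 [28.8% and 22.6%]. For TGF-β1 in control cells (3 [8.37%]), its own 6 libraries gave 2 [2.69%], with Cd14 lost, removal of the length trend 6 [12.8%], with the replicate block 5 [11.8%], and of length and GC trends 7 [13.7%]. Leaving out single libraries gave 3 to 11, with 11 without unstimulated control library 3 [22.3%] and 5 without unstimulated control library 2 [10.9%]. For TGF-β1 in Smad7-KO cells (5 [10.2%]), its own 6 libraries gave 15 [26.3%] and both trend removals 9 [14% and 15%]. Leaving out single libraries gave 3 to 9, with 3 without any 1 Smad7-KO library [6.34% to 6.96%] and 9 without unstimulated control library 2 [16.3%]. Among single calls for Smad7 loss in unstimulated cells, Tlr4, Tlr13 and Traf6 were lost without unstimulated control library 1 or any 1 unstimulated Smad7-KO library, Tlr3 without the same control library or unstimulated Smad7-KO library 1 or 2, and Tlr6 without that control library or unstimulated Smad7-KO library 3. Their lowest log2 changes were then 0.77, 0.53, 0.42, 0.44 and 0.72. Tab2 held in 3 of the 12 (lowest 0.29), without unstimulated control library 3, TGF-β1 control library 2 or TGF-β1 Smad7-KO library 3. In stimulated cells, Tlr2 and Tlr7 were lost without TGF-β1 control library 2 or TGF-β1 Smad7-KO library 1 or 2 (lowest 0.41 and 0.90), Cd180 and Tab2 also without TGF-β1 control library 3 (0.85 and 0.39), Irak2 without any TGF-β1 control library or TGF-β1 Smad7-KO library 1 (0.43), and Tlr6 in 7 of the 12, without an unstimulated Smad7-KO library, TGF-β1 control library 2 or 3, or TGF-β1 Smad7-KO library 1 or 2 (0.61). The interaction stayed at 0 in every alternative that could be fitted, since it needs all 4 groups. Map3k7 changed direction for Smad7 loss in unstimulated cells, from 0.15 (not passing) to -0.22 (adjusted p = 0.0412) with length and GC trends removed. The cause of these differences was not tested. Of the 12 same-numbered pairs of libraries, the control libraries 2 with and without TGF-β1 deviated together (correlation 0.524), and the other pairs did not (-0.205 to 0.0835). TGF-β1 control library 1 correlated more strongly with an unstimulated control library of another number (0.554). Since no comparison had all its pairs above 0.1, the numbers were not taken to pair the libraries. With the replicate block 12 [21.3%], 7 [10.7%], 3 [7.31%], 5 [8.73%] and 0 [0%] of the 39 genes passed in the 5 comparisons. Over all tested genes, the share of higher calls for Smad7 loss in stimulated cells was 44.1%, but 65.6% with the length trend removed and 31.8% by limma on log2(FPKM + 1), and for TGF-β1 in control cells it was 60.2% and 46.1% with the length trend removed.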
